A study of Mus musculus with 6 samples.

Results

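Arhgap31 and Kazn are 2 of the 32285 genes counted in CD45+ cells sorted from mouse midbrain. They were chosen because, in microglia, every sample of the PFF + AZD1480 group lay above every sample of the PFF + VH group. That contrast in microglia chose them, so their values there are a description and carry no test. All mice were male Line 61 mice, which express human wild-type α-Syn from the Thy1 promoter and were 12 to 15 weeks old at surgery. They received PBS, monomeric human α-Syn (Monomer) or preformed fibrils of human α-Syn (PFF) in the striatum on both sides. The PFF + AZD1480 group was given AZD1480, which inhibits JAK1 and JAK2, at 25 mg/kg by daily gavage from week 2 for 4 weeks, the PFF + VH group was given vehicle (DMSO), and all cells were collected at week 6. Each condition is 1 library of 3' UMI counts, made from samples of 3 to 5 pooled midbrains.

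Arhgap31 encodes CdGAP, a GTPase-activating protein that switches off the small GTPases Cdc42 and Rac1, which build filopodia and lamellipodia. Intersectins and parvins bind CdGAP and GSK3 phosphorylates it. Kazn encodes kazrin, a coiled-coil protein with SAM domains that resembles the liprins, was found as a partner of the plakin periplakin at desmosomes and has been linked to endosome transport. Neither gene is a usual marker of microglia, the resident macrophages of the brain, whose processes extend and retract through Rac and Cdc42.

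In the GENCODE annotation of mm10, Arhgap31 (ENSMUSG00000022799) lies on the minus strand at chr16:38598340-38713274 and spans 114935 bases, of which 9.69% are exonic. Kazn (ENSMUSG00000040606) lies on the minus strand at chr4:142102390-142239401 and spans 137012 bases, of which 7.83% are exonic. It has 9 annotated transcripts, 6 of them coding, against 3 and 1 for Arhgap31. Both genes are thus long and mostly intronic. RefSeq promoter windows (250 bases before a start site and 50 after it, GRCm38.p6) were at hand for Kazn alone, at an internal start (chr4:142215409-142215708, minus strand) and at the start of the whole gene (chr4:142239352-142239651, minus strand). They are shown because the level of Kazn was the higher with the JAK inhibitor and differed between cell classes, and capitals mark the matches of 3 motifs searched on both strands: the STAT motif GAS (TTCNNNGAA), the interferon motif ISRE and the myeloid PU.1 motif (GAGGAAGT).
Kazn internal start: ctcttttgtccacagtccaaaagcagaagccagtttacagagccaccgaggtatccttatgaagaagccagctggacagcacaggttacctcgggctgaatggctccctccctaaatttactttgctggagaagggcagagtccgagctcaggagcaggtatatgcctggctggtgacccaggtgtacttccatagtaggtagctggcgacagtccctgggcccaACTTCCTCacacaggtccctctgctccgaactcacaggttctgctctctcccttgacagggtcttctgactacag
Kazn first start: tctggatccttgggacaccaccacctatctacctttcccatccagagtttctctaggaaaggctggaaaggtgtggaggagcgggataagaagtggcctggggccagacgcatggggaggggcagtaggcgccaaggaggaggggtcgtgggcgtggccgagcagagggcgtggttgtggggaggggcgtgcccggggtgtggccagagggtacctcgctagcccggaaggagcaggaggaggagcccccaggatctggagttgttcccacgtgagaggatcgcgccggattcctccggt
The internal window held 1 PU.1 match, on the opposite strand, and the window at the first start held none of the 3 motifs. Of 32851 promoter windows of the same length, 3.20% held the PU.1 letters, 8.30% the GAS letters and 3.44% the ISRE letters. The GC content was 54.3% in the internal window and 64.3% at the first start, beside a median of 52.7% over all windows.

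After filtering, the PBS, Monomer, PFF + VH and PFF + AZD1480 libraries held 14617, 15031, 34436 and 13021 cells at a median of 7028, 6688, 2306 and 6616 UMIs, so PFF + VH was the shallowest. Its cells were also highest in Gm42418, a gene that overlaps ribosomal RNA, at 11440 ± 373 CPM (UMIs per 1000000 UMIs of the summed cells) in microglia against 8413 ± 128 in PFF + AZD1480 (SD, n = 4 and 5). Pairs of libraries shared 51 to 163 barcodes. Cells were assigned to a class when more than 50% of their class-marker UMIs, with at least 3 markers, belonged to microglia (MG), border macrophages, monocytes and dendritic cells (MM), T and NK cells (T), B cells (B) or neutrophils (Neu). MG made up 91.6% to 92.1% of each library, and their 10 markers, such as P2ry12 and Tmem119, summed to 9428 to 11438 CPM there. The PFF libraries carry 4 and 5 hashtags, antibody barcodes whose number equals the stated samples, and each was taken as a replicate, which the sources do not spell out. A p-value over hashtags measures only the spread between these samples. Since each condition is 1 library, library and condition cannot be told apart.

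Both genes were measured well in MG, with 5806 to 11488 UMIs of Arhgap31 and 1583 to 3442 of Kazn per library. In PFF + VH, the 4 hashtags had Arhgap31 at 56.6, 54.6, 54.2 and 58.6 CPM. In PFF + AZD1480, the 5 hashtags had it at 132.4, 137.4, 136.9, 157.7 and 147.7 CPM. The lowest PFF + AZD1480 sample was thus 2.26 times the highest PFF + VH sample. The mean was 56.0 ± 2.05 CPM (SD, n = 4) in PFF + VH and 142.4 ± 10.2 CPM (SD, n = 5) in PFF + AZD1480, a fitted log2 fold change of 1.29 (SE 0.05).

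For Kazn the hashtags were at 21.1, 22.0, 18.5 and 19.2 CPM in PFF + VH and at 45.8, 45.7, 39.7, 44.1 and 38.8 CPM in PFF + AZD1480. The means were 20.2 ± 1.63 CPM (SD, n = 4) and 42.8 ± 3.32 CPM (SD, n = 5), with a log2 fold change of 1.04 (SE 0.07). The groups do not overlap for either gene, as the choice of the members required, and 14.2% of the 13644 genes tested met the same condition in this direction. Just inside and just outside that condition, among genes that averaged 10 CPM or more, Shb had a lowest PFF + AZD1480 sample level with its highest PFF + VH sample at 22.1 CPM, and Tpr did so at 180.1 CPM. By size of the fold change, Arhgap31 ranked 24 and Kazn 35 of the 1943 genes that met it. Among the 3584 genes within 2-fold of the PFF + VH level of Arhgap31, 2 had a fold change at least as large, Arhgap31 included, and for Kazn it was 5 of 4310 genes, Kazn included.

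**Figure D1:**
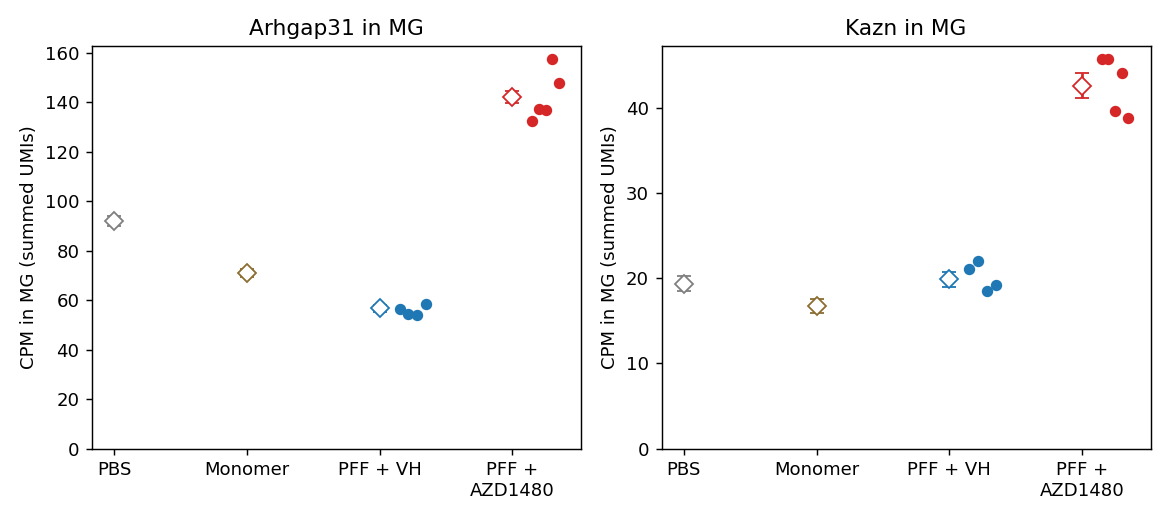
Level of Arhgap31 and Kazn in MG, in CPM of summed UMIs. Diamonds are whole libraries with exact Poisson 95% intervals and points are single hashtags. All PFF + AZD1480 hashtags lie above all other values, and Arhgap31 is lower in PFF + VH than in PBS and Monomer while Kazn is not.

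The PBS and Monomer libraries, which the choice did not use, showed the 2 genes in different places relative to PFF + VH. Over all MG of a library, Arhgap31 was at 92.1 CPM after PBS (exact Poisson 95% interval 90.2 to 94.0), 71.1 after Monomer (69.4 to 72.8), 56.7 after PFF + VH (55.2 to 58.2) and 142.1 after PFF + AZD1480 (139.6 to 144.8). PFF + VH was thus the lowest library, at 0.616 times PBS (0.596 to 0.636). PFF + AZD1480 was at 1.54 times PBS (1.501 to 1.587) and 1.999 times Monomer (1.94 to 2.06). These intervals cover counting error only, and no test of the conditions was made, because the 3 stated replicates each of PBS and Monomer cannot be told apart within their libraries, which carry no hashtags.

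Kazn was at 19.4 CPM after PBS (18.5 to 20.3), 16.8 after Monomer (15.95 to 17.6), 19.9 after PFF + VH (19.0 to 20.7) and 42.6 after PFF + AZD1480 (41.2 to 44.0). The PBS, Monomer and PFF + VH libraries therefore lay close together, with PFF + VH at 1.03 times PBS (0.963 to 1.09), and PFF + AZD1480 was at 2.20 times PBS (2.08 to 2.33). The levels in PFF + AZD1480 and PFF + VH are those that chose the genes, so their place among other genes is a description. The 8382 genes compared averaged 10 CPM or more over the 4 libraries in MG. Against the mean of PBS and Monomer, 0.513% of them had a ratio in PFF + AZD1480 as high as Kazn. For Arhgap31 this share was 1.17%. In PFF + VH, 99.3% of these genes had a higher or equal ratio than Arhgap31, which was 0.695, and 14.3% one at least that of Kazn, which was 1.10.

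The share of mitochondrial UMIs in MG was 1.17% to 1.39% over the PFF + VH hashtags and 0.952% to 1.08% over those of PFF + AZD1480, and its part in the levels of either gene was not tested.

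Cells left out of the replicates come from the same PFF libraries and the contrast that chose the genes, so their values are a description. MG without a hashtag had Arhgap31 at 62.1 CPM in PFF + VH and 213.5 in PFF + AZD1480, and Kazn at 21.0 and 47.3. The 213.5 CPM lay above the range of the PFF + AZD1480 hashtags, 132.4 to 157.7 CPM, and came from cells at a median of 1614 UMIs. MG with more than 1 hashtag had Arhgap31 at 52.3 and 131.7 CPM and Kazn at 17.8 and 36.1. No doublet caller was run, so MG with more than 1 hashtag are the nearest measure of doublets.

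The level of Arhgap31 in CPM varied with the depth of the cell. In PBS it fell from 170.5 CPM (146.8 to 196.8) in MG with 1000 to 2000 UMIs to 88.6 (86.1 to 91.1) in MG with 8000 to 15000 UMIs, and in Monomer from 133.9 CPM at 500 to 1000 UMIs to 69.3. In PFF + VH it stayed between 52.4 and 64.2 CPM in all 5 ranges of depth. In PFF + AZD1480 it was highest, at 199.2 CPM (174.7 to 226.2), at 1000 to 2000 UMIs, and 155.4 (105.6 to 220.5) in shallower cells. It was 122.4 CPM (112.9 to 132.5) at 2000 to 4000 UMIs, beside 121.6 (110.2 to 133.9) in PBS, and 143.9 (140.4 to 147.5) at 8000 to 15000 UMIs. Beside PBS, PFF + AZD1480 was higher above 4000 UMIs and within counting error of it below that depth. These are the same UMIs as above, split by depth, and between the PFF libraries they are no further evidence.

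Kazn in PFF + AZD1480 ranged from 32.7 CPM (27.8 to 38.1) at 2000 to 4000 UMIs to 55.1 (27.5 to 98.7) at 500 to 1000 UMIs, and in PFF + VH from 18.4 to 21.9 CPM. From 2000 UMIs upwards, its interval in PFF + AZD1480 lay above those of the other 3 libraries.

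**Figure D2:**
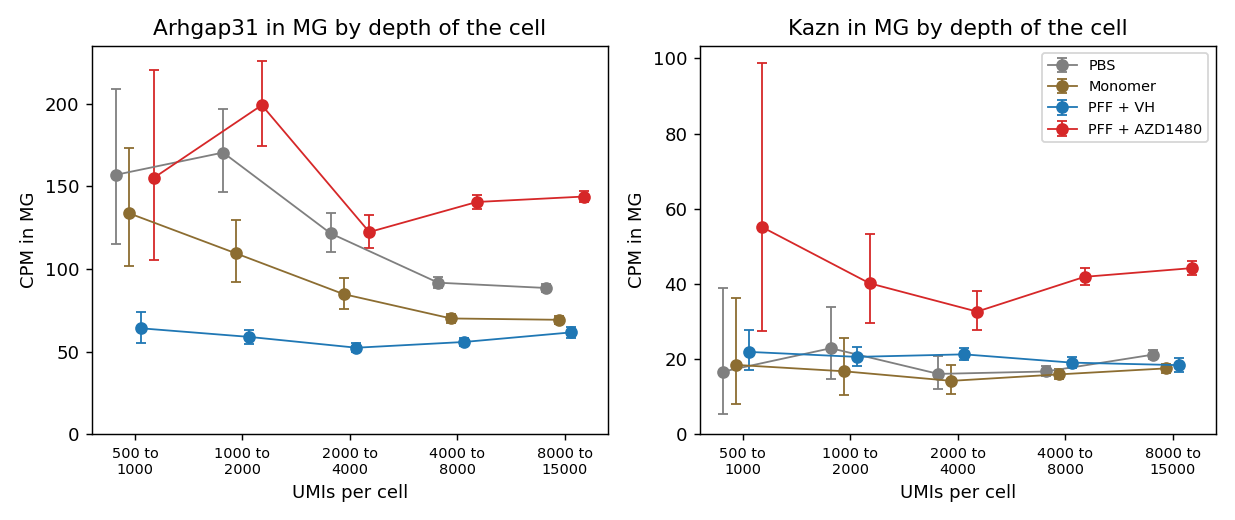
Level of Arhgap31 and Kazn in MG, in CPM, by the number of UMIs of the cell, for the 4 libraries. Bars are exact Poisson 95% intervals. Arhgap31 falls with depth in PBS and Monomer and stays near 52 to 64 CPM in PFF + VH, and PFF + AZD1480 overlaps PBS up to 4000 UMIs and lies above it in deeper cells.

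The same UMIs can be given as shares of cells. After thinning of each cell to 2000 UMIs, which left out 1051 to 12679 shallower MG per library, a UMI of Arhgap31 was found in 14.5% of MG after PBS, 11.7% after Monomer, 9.37% after PFF + VH (8.96 to 9.79, exact binomial 95% interval) and 21.0% after PFF + AZD1480 (20.2 to 21.8). A UMI of Kazn was found in 2.94%, 2.83%, 3.59% (3.33 to 3.87) and 6.51% (6.05 to 6.99). At the same 2000 UMIs the shares for Kazn in T cells, taken here as the background of free RNA, were 0% (0 to 1.73), 1.77% (0.365 to 5.07), 1.55% (0.188 to 5.49) and 2.86% (0.593 to 8.12). In Monomer, PFF + VH and PFF + AZD1480 these intervals contain the MG share. Whether T cells carry Kazn of their own was not tested. Without thinning the shares for Arhgap31 were 33.9%, 27.2%, 13.5% and 44.9%, and for Kazn 8.28%, 6.76%, 5.23% and 15.8%. In neutrophils the thinned share for Arhgap31 was 7.69%, 17.7%, 7.90% and 30.6%, so its UMIs were also found outside MG.

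Whether the same MG carried both RNAs was asked within each hashtag at 2000 UMIs per cell. The share of MG with a Kazn UMI was 0.63 percentage points higher (SD 1.87, n = 9 hashtags) in MG with an Arhgap31 UMI than in MG without, with a higher share in 5 of 9 hashtags (two-sided exact sign-flip permutation test, p = 0.336). The difference ranged from -2.15 to 3.39 points. The 2 RNAs were found together in 179 MG, beside 166 for independent detection. In PBS the difference was -0.61 points and in Monomer -0.47, so no excess of shared cells was detectable at this depth.

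Arhgap31 was also found in MM and T, and Kazn had a lower CPM there than in MG of the same library. In MM, Arhgap31 was at 89.3 CPM after PBS (76.0 to 104.2), 65.7 after Monomer (53.3 to 80.2), 93.3 after PFF + VH (76.2 to 113.1) and 127.0 after PFF + AZD1480 (110.8 to 145.0). MG markers in MM were at 15.1% to 23.3% of their level in MG, and that share of the MG level of Arhgap31 would be 10.7 to 28.1 CPM. Kazn in MM was at 2.79, 10.2, 8.08 and 21.9 CPM, from 5, 15, 9 and 38 UMIs. In PBS and PFF + VH these levels lay within counting error of the share that MG RNA could give, 3.18 and 4.63 CPM. In Monomer and PFF + AZD1480 the intervals of Kazn (5.69 to 16.8 and 15.5 to 30.1 CPM) lay above that share, 2.53 and 8.42 CPM, but with a marker share over 80% for the class, Kazn in MM of Monomer was at 4.45 CPM.

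Within hashtags, no difference of Arhgap31 between MG and MM passed the test, at a log2 fold change of -0.09 (SE 0.14, edgeR adjusted p = 0.685). Kazn was higher in MG than in MM by 1.13 (SE 0.28, edgeR adjusted p = 0.000627), where 34.9% of 11132 genes passed in either direction and 20.3% as higher in MG. Without the hashtag as a replicate block the adjusted p of Kazn was 0.0854. Against T, Arhgap31 had a log2 fold change of 0.07 (SE 0.21, edgeR adjusted p = 0.82). Kazn was higher in MG by 2.26 (SE 0.49, edgeR adjusted p = 2.2e-05), with 45.2% of 10922 genes called and 29.8% as higher in MG. A sum of MM and several of T held 0 UMIs of Kazn, so it reached the filter on low counts through MG. The MG sums also chose both members, so the calls of Kazn against MM and T are given as a description. Without that filter Kazn was higher in MG by 1.21 against MM (edgeR adjusted p = 0.000168) and 2.52 against T (edgeR adjusted p = 1.09e-06). With MULTIseqDemux calls the log2 fold change of Kazn against T was 3.17, and with a marker share over 80% it was 10.9, a value that depends on the prior count because the T sums then held 0 UMIs of Kazn in all 9 hashtags. In this description the order of levels was MG above MM and T for Kazn, while for Arhgap31 neither difference from MG passed. That average over libraries joins unlike values, since Arhgap31 in PFF + VH was at 93.3 CPM in MM and 56.7 in MG, and in PFF + AZD1480 at 127.0 and 142.1. The difference between MG and MM was not tested within a library.

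**Figure D3:**
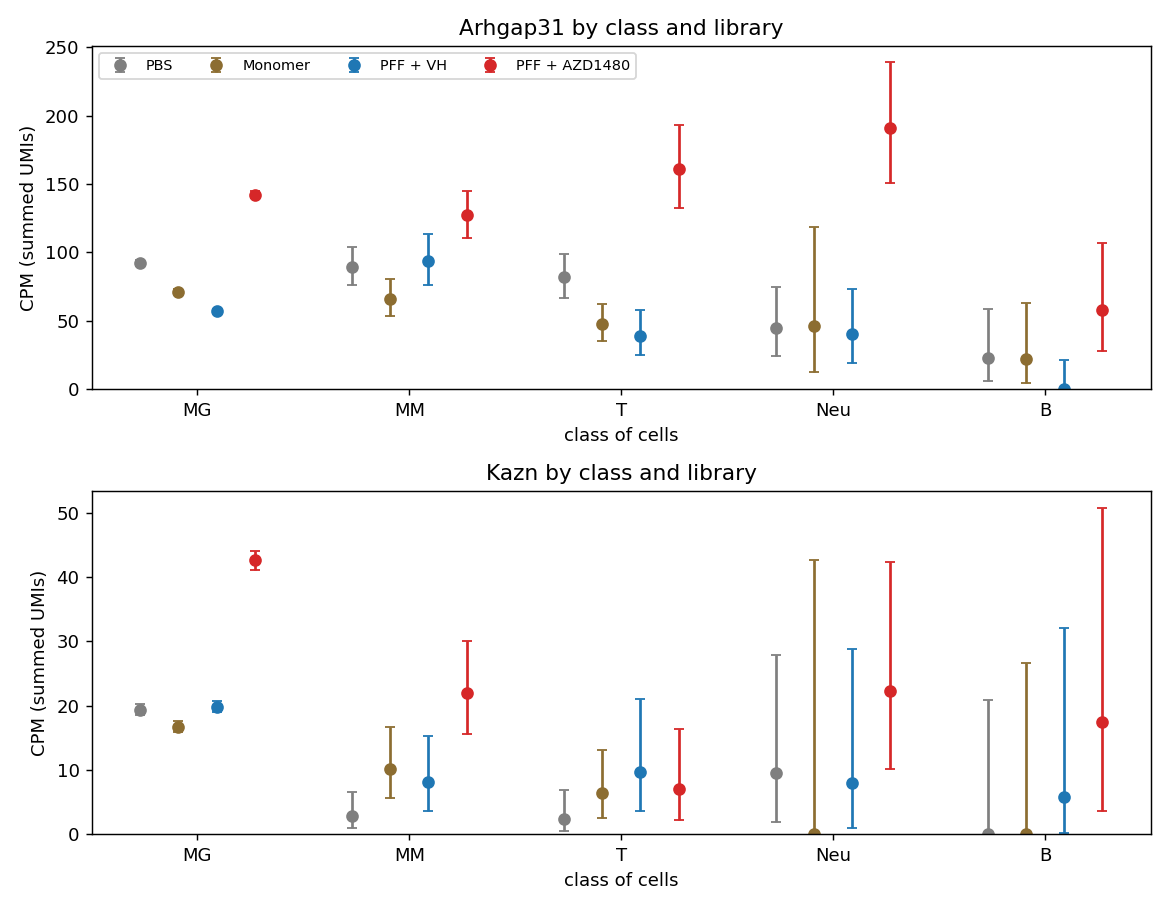
Level of Arhgap31 and Kazn, in CPM of summed UMIs, by class of cells and library, with exact Poisson 95% intervals. Arhgap31 is highest in the PFF + AZD1480 library in each class shown, with intervals that overlap those of other libraries in MM and B, and Kazn is highest in MG among these 5 classes, with wide intervals in Neu and B.

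The contrast of PFF + AZD1480 with PFF + VH outside MG was not used to choose the genes. In MM, Arhgap31 was at 87.6, 81.6, 49.2 and 110.9 CPM in the PFF + VH hashtags and at 138.4, 107.2, 108.7, 117.7 and 156.8 CPM in those of PFF + AZD1480. The highest PFF + VH sample lay above 2 of the PFF + AZD1480 samples. The log2 fold change was 0.58 (SE 0.24, edgeR adjusted p = 0.39), and 0.488% of 3895 genes passed in MM, 0.18% as higher, so the difference was not past the threshold. Kazn in MM had 1, 3, 1 and 1 UMIs in the PFF + VH hashtags and 10, 1, 0, 11 and 3 in those of PFF + AZD1480. It was under the filter on low counts, and without that filter its log2 fold change was 1.57 (edgeR adjusted p = 0.533). MG markers in MM were at 1777 to 2177 CPM in PFF + VH and 1630 to 1986 CPM in PFF + AZD1480, all 10 of them detected in both.

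In the T class, the hashtags had few UMIs of Arhgap31. They were at 86.9, 0, 40.4 and 51.9 CPM in PFF + VH, from 6, 0, 5 and 7 UMIs, and at 178.0, 121.3, 239.5, 241.8 and 289.9 CPM in PFF + AZD1480, from 12, 12, 3, 34 and 13 UMIs. The groups do not overlap, as for 1.75% of the genes tested in T in this direction. Arhgap31 entered the fit through the PFF + AZD1480 samples alone, since all 5 of them and none of PFF + VH reached the filter of 101.1 CPM, so its call there had to favour that group and is given as a description. The log2 fold change was 2.25 (SE 0.46, edgeR adjusted p = 0.0289), beside 1.28% of 1882 genes that passed in T in either direction and 0.478% as higher, and with no filter the adjusted p was 0.000408. The call was lost with the hashtag number as a replicate block (adjusted p = 0.114) and in 6 of the 9 fits that left out 1 hashtag, where the adjusted p ranged from 0.0118 to 0.132.

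The make-up of the T class differed between the libraries. Cells with a UMI of the NK genes Ncr1 or Klrb1c were 57.4% of the class in PFF + VH and 32.4% in PFF + AZD1480. In T cells with a CD3 or T cell receptor UMI and neither NK gene, Arhgap31 was at 69.5 CPM (39.7 to 112.8) in the PFF + VH library and 186.3 (149.7 to 229.3) in PFF + AZD1480, beside 105.7 in PBS and 81.6 in Monomer. In cells with an NK gene it was at 20.7 CPM (8.95 to 40.8) and 107.8 (69.8 to 159.2), beside 51.8 and 14.2. Over hashtags the T cells without NK genes ranged from 0 to 249.3 CPM in PFF + VH and from 78.7 to 580.4 CPM in PFF + AZD1480, where the highest value is 1 UMI in 1 cell, so the groups overlap (two-sided exact permutation test over 4 and 5 hashtags, p = 0.135). The cells with an NK gene gave p = 0.246 in the same exact permutation test. This split was chosen after the values were seen. MG markers in T were lower in PFF + AZD1480 than in PFF + VH, at 559 to 831 against 1091 to 1440 CPM over hashtags. MG RNA could give T cells of the PFF + AZD1480 library 15.9 CPM of Arhgap31, beside a measured 160.7. For the PFF + VH library this estimate was 9.0, beside a measured 38.7. Whether MG RNA contributed to the higher Arhgap31 in T was not tested.

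The log2 fold changes of Arhgap31 in T and in MM differed by 1.66 (SE 0.53), and this difference did not pass over the 3495 genes of that fit (edgeR interaction, adjusted p = 0.346). Kazn in T had 4 UMIs in the PFF + VH hashtags and 2 in those of PFF + AZD1480, and its level of 7.05 CPM in the PFF + AZD1480 library (2.29 to 16.5) lay within counting error of the 4.77 CPM that MG RNA could give.

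Neutrophils held few cells, 18 to 102 per library. Arhgap31 was at 44.5 CPM after PBS (24.3 to 74.7), 46.3 after Monomer (12.6 to 118.5), 39.9 after PFF + VH (19.1 to 73.4) and 191.2 after PFF + AZD1480 (150.9 to 239.0). Its hashtags were at 27.9, 0, 43.3 and 0 CPM in PFF + VH, from 4 UMIs in all, and at 144.6, 263.4, 401.7, 267.3 and 55.9 CPM in PFF + AZD1480, from 59 UMIs. All 5 PFF + AZD1480 samples lay above the PFF + VH samples, but the values at 0 come from hashtags of 2 and 10 cells. The first of these held 2266 UMIs in all. No test over all genes was made in this class, and the share of genes that separate in this way was not computed. The separation is therefore only a description. MG markers in Neu were at 1324 to 5527 CPM in PFF + VH and 268 to 1416 CPM in PFF + AZD1480, and MM markers at 782 to 4549 and 2239 to 7544 CPM, so the part of MM in this difference was not tested. In B cells, 0 UMIs of Arhgap31 were found in PFF + VH (0 to 21.3 CPM), and 10 in PFF + AZD1480 (58.0 CPM, 27.8 to 106.6). Of these 10, 8 came from B cells with more than 1 hashtag, and 1 cell held 7. Kazn had at most 9 UMIs per library in Neu and 3 in B. In cells that fit no class, Arhgap31 was at 191.5 CPM after PBS (163.7 to 222.8), 150.8 after Monomer, 80.6 after PFF + VH (69.5 to 92.9) and 149.5 after PFF + AZD1480 (128.6 to 172.8), so there PFF + AZD1480 did not lie above PBS. Kazn in these cells was at 20.5, 18.6, 29.3 and 52.3 CPM (40.3 to 66.8 in PFF + AZD1480), at or above its level in MG. In the 6 to 11 cells per library with markers of neurons, glia or vessels, Kazn was at 88.0 CPM after PBS (4 UMIs), 0 after Monomer, 152.4 after PFF + VH (61.3 to 314.0, 7 UMIs) and 154.3 after PFF + AZD1480 (74.0 to 283.7, 10 UMIs), above its level in MG in the 3 libraries where it was found. Arhgap31 in these cells was at 110.0 CPM after PBS, 560.2 after Monomer (279.7 to 1002, 11 UMIs), 0 after PFF + VH and 123.4 after PFF + AZD1480.

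Within MG, the level of Kazn went with immediate early genes. These are genes such as Fos, Jun and Egr1, which are transcribed within minutes of a stimulus and also during tissue dissociation. MG counted as carrying them when at least 3 of 12 had a UMI after thinning to 1000 UMIs, as did 72.9% of MG after PBS, 78.4% after Monomer, 89.5% after PFF + VH and 83.3% after PFF + AZD1480. Kazn in these MG was at 23.5, 23.3, 19.6 and 20.1 CPM in the PFF + VH hashtags, against 11.2, 10.8, 9.28 and 13.3 CPM in the other MG of the same hashtags. In PFF + AZD1480 the values were 49.2, 49.0, 43.3, 48.4 and 41.9 CPM against 23.4, 21.7, 17.8, 19.7 and 24.3 CPM. Every hashtag was higher in the MG with immediate early genes. How many of all genes do the same was not counted, so it cannot be said whether this is particular to Kazn.

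The mean log2 difference of Kazn, with 1 CPM added, was 1.00 (SD 0.22, n = 9), and the two-sided exact sign-flip permutation test gave p = 0.00391, the smallest that 9 hashtags allow, and an adjusted p of 0.0313 over 8 tests of 2 genes in 4 states. PBS, at 22.5 against 9.53 CPM, and Monomer, at 18.6 against 9.14 CPM, had the same direction. MG with immediate early genes were lower in MG markers in each library, for example 10180 against 12830 CPM in PBS, and deeper in PBS, Monomer and PFF + AZD1480 but not in PFF + VH (median of 2725 against 3056 UMIs). Their mitochondrial share was also the higher in PBS (1.08% against 0.798%), Monomer (1.06% against 0.83%) and PFF + VH (1.29% against 1.15%), and equal in PFF + AZD1480 (1.05%). The part of these in the level of Kazn was not tested. With thinning to 2000 UMIs the difference was 0.66, higher in 8 of 9 hashtags (sign-flip permutation test, adjusted p = 0.0625).

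**Figure D4:**
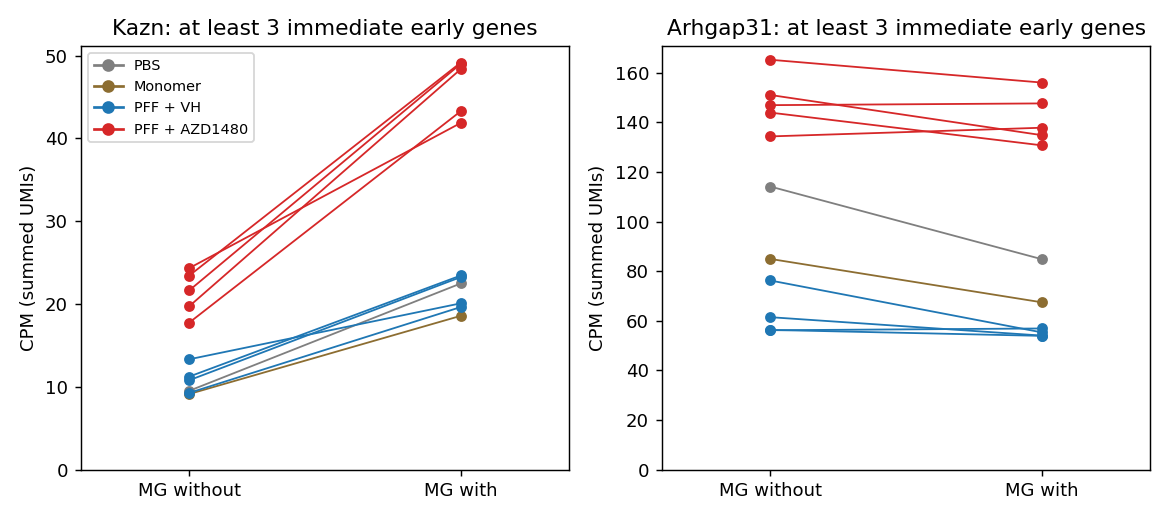
Level of Kazn and of Arhgap31, in CPM, in MG without and with at least 3 immediate early genes. Each line is 1 hashtag of a PFF library, or the whole PBS or Monomer library. Kazn is higher in the MG with these genes on each line, and Arhgap31 is not.

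For Arhgap31, the log2 difference between MG with and without immediate early genes did not pass, at -0.11 (SD 0.15, n = 9, higher in 3 of 9 hashtags, exact sign-flip permutation test, adjusted p = 0.141). In PBS it was at 84.8 CPM with and 114.1 without these genes, and in Monomer at 67.4 and 84.9 CPM. The other 3 states gave no call for either gene. The sign of the differences of Arhgap31 in interferon-responsive and cycling MG and of Kazn in disease-associated MG turned with other settings for the states. In disease-associated MG, marked by genes such as Spp1 and Lpl, the log2 difference was -0.09 for Arhgap31 (SD 0.20, permutation test, adjusted p = 0.43) and -0.12 for Kazn (SD 0.50, adjusted p = 0.641). Interferon-responsive MG had 161 UMIs of Arhgap31 and 58 of Kazn over the hashtags, with differences of 0.20 (SD 0.50) and -0.47 (SD 1.94). Cycling MG, 229 cells in 8 hashtags, had 102 and 26 UMIs, with differences of 0.05 (SD 0.73) and -2.14 (SD 2.85). The smallest adjusted p among these 6 tests was 0.271 (permutation test), and the few UMIs set wide limits on what could be seen.

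Lists of related genes were looked at in MG, where 27.1% of 13644 genes were called by edgeR, 12.3% as higher and 14.8% as lower in PFF + AZD1480, and the median over all of them was -0.001 on the log2 scale. The lists were put together with earlier results known. Of the 16 GTPases and regulators around CdGAP, 13 were tested, 4 were higher and 3 lower, with a median of 0.11. Parvb (β-parvin), at 0.37, Itsn2 (intersectin 2), at 0.27, and the Cdc42-related GTPase Rhoq, at 0.23, were higher. Rac2, the Rac of blood cells, fell by 0.45, from 108.8 ± 2.70 to 82.6 ± 6.61 CPM (edgeR adjusted p = 0.000184), and Parvg (γ-parvin) and Rhog fell by 0.18 and 0.13. Of 15 plakins, junction proteins and liprins listed for kazrin, 9 were tested, 3 were higher and 1 lower, with a median of 0.14. Jup (plakoglobin), at 0.32, the liprin Ppfibp2, at 0.32, and Pkp4, at 0.27, were higher, and the liprin Ppfia4 fell by 0.23.

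The JAK/STAT targets included no gene that was called higher. Of the 15 tested, 10 were lower and none was higher, by edgeR, with a median of -0.71, and the largest decreases were in Ifit3 (-2.37), Irf7 (-1.80) and Isg15 (-1.66). Isg15, a ubiquitin-like protein induced by interferon, was at 52.2 ± 3.72 CPM in PFF + VH (n = 4), 17.2 ± 3.66 CPM in PFF + AZD1480 (n = 5) and 20.3 and 20.2 CPM in PBS and Monomer.

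**Figure D5:**
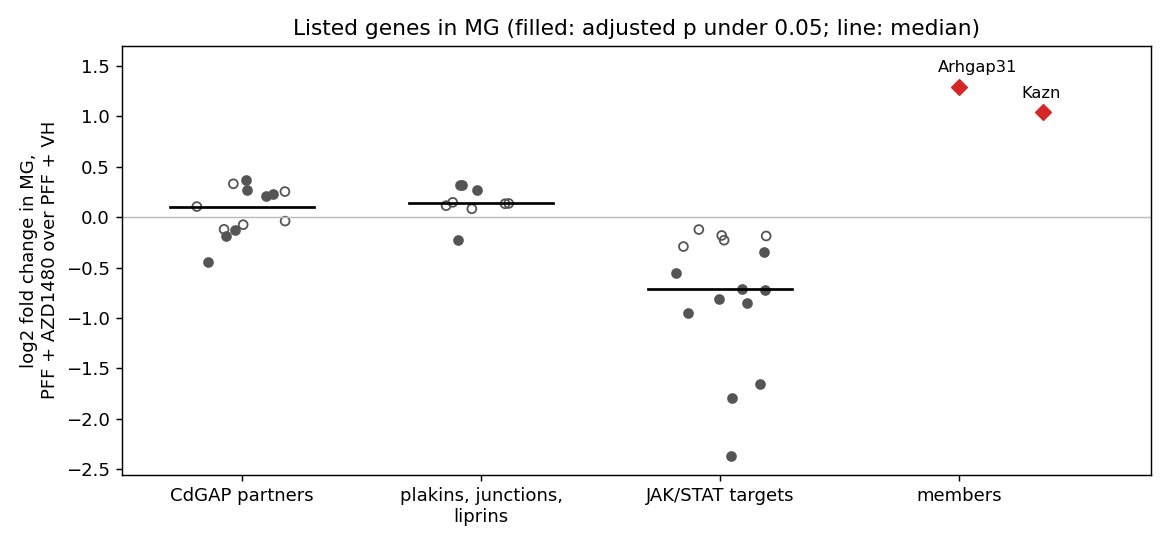
Log2 fold change in MG, PFF + AZD1480 over PFF + VH, of the listed genes tested. Each point is 1 gene, filled where the edgeR adjusted p was under 0.05, lines are medians, and diamonds are the members, which were chosen on this contrast. Arhgap31 at 1.29 and Kazn at 1.04 lie above all other genes plotted, and the JAK/STAT targets have a median of -0.71.

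Long genes were more often higher. By the span of the gene, 5.09% of 6385 genes under 20 kb, 14.9% of 5569 genes of 20 to 100 kb, 32.6% of 1348 genes of 100 to 300 kb and 27.1% of 332 genes over 300 kb were higher in PFF + AZD1480, and their median log2 fold changes were -0.09, 0.04, 0.12 and 0.14. Both members fall in the range of 100 to 300 kb, where 0.445% of genes had a fold change at least that of Arhgap31 and 0.89% one at least that of Kazn, members included. The part of gene length in their levels was not tested.

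The genes around them did not share the difference to the same degree. Beside Arhgap31, Tmem39a (log2 fold change -0.01, edgeR adjusted p = 0.962) and Poglut1 (-0.09, adjusted p = 0.523) did not pass, and B4galt4, a galactosyltransferase, was higher by 0.25 (adjusted p = 0.0152). Upk1b, a uroplakin of the tetraspanin family, rose by 0.67 (edgeR adjusted p = 0.000554), from 35.6 to 59.3 CPM, at a distance of 59910 bases. Gm17103 and 4930435E12Rik were not tested. Beside Kazn, Tmem51 (-0.03, edgeR adjusted p = 0.956) and Prdm2 (0.14, adjusted p = 0.0929) did not pass, and Gm13053, Tmem51os1, Gm13052, 6330411D24Rik and the overlapping antisense gene Gm13062 had 0 to 33 UMIs in all MG.

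Over 11 sums of MG (9 hashtags, PBS and Monomer), the genes whose log2(CPM + 1) followed Arhgap31 most closely were Arhgap22 (Pearson r = 0.981), Blnk (0.978), Me2 (0.974), Ptprj (0.971) and Clint1 (0.970), out of 6294 genes that averaged 20 CPM or more. Arhgap22, the nearest and a GTPase-activating protein for Rac, was at 241.1 CPM after PBS, 223.8 after Monomer, 203.3 after PFF + VH and 297.6 after PFF + AZD1480, the same order of libraries as Arhgap31. The nearest to Kazn were Gm13684 (0.964), 2900089D17Rik (0.963), Irak2 (0.960), Pmp22 (0.954) and Alpk1 (0.953). Irak2, a kinase of Toll-like receptor signalling, was at 256.7, 258.5, 259.0 and 363.2 CPM. The members followed each other with r = 0.898, which placed Kazn at rank 127 for Arhgap31 and Arhgap31 at rank 53 for Kazn. Of the 11 points, 9 are the hashtags on which both members were chosen, so the choice favoured a high r between them. The points also share libraries, so r describes them and has no test.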

How the data were processed

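CD45+ cells of 4 libraries were measured by 10x 3' scRNA-Seq. The authors deposited raw UMI counts for each cell, made with Cell Ranger (release 7.0.1 in the file headers) on mm10. Whether intronic reads were counted is not given in the sources used here. The members and gene lists were chosen with earlier results of these data known. Cells with 500 to 15000 UMIs, 250 to 5000 genes and at most 10% mitochondrial UMIs were kept, and classes were set from marker UMIs. Hashtags were called with HTODemux (Seurat 5.3.0, positive quantile 0.99), which gave 1 hashtag to 52.0% of cells in PFF + VH and 81.0% in PFF + AZD1480. Cells with no hashtag or several entered library values only, and no doublet caller was run.

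The UMIs of each class and hashtag were added up and fitted over all genes by quasi-likelihood in edgeR 4.0.16 (R 4.3.3, TMM, filterByExpr, Benjamini-Hochberg, threshold 0.05), after a check on simulated data. Classes of a hashtag come from the same mice, so comparisons between classes had the hashtag as a block. Between MG and MM, 7 of 9 hashtags had deviations that correlated by more than 0.1 (0.031 to 0.314), and between MG and T 1 of 9. Levels are CPM of summed UMIs with exact Poisson 95% intervals, which cover counting error only, as do the binomial ones. The RNA that MG could give to another class was taken as its MG-marker level over that of MG. States and shared detection were tested over hashtags with scipy 1.17.1 (Python 3.11.15). Named genes were, per list and direction, up to 3 called genes with the largest fold change, the 3 nearest genes on each side and the 5 most alike. The results of 1 further gene list are not reported here. Shb and Tpr were added after their values were seen. Alternatives were RLE scaling, no filter, DESeq2 1.42.0, MULTIseqDemux, hashtag values centred within cells, a marker share of 80%, at least 1000 UMIs, Gm42418, Cmss1 and mitochondrial genes left out, other thinning depths, marker numbers and pseudocounts, the replicate block, and each hashtag left out.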

Additional observations from a re-analysis of the deposited data

Results flagged for a closer look

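Over the hashtags of 1 library, 20 groups of 4 or 5 values of the members were looked at for a value far from the others, and 2 had one. Chance alone gives about 1 in 20. Kazn in Neu of PFF + VH was at 21.7 CPM in hashtag 3, from 1 UMI, and at 0 in the other three. The log2 difference of Kazn between MG with and without immediate early genes was 0.56 in hashtag 4 of PFF + VH, the lowest of that library, where the MG without these genes had the highest level.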

How the results depend on the processing

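Of 264 values under other settings, 235 kept their direction and their side of the threshold or moved by less than their error. The 7 that turned in sign were differences that passed under neither setting after adjustment. With at least 2 markers and with thinning to 2000 UMIs, in that order, Arhgap31 was at -0.25 and -0.24 in interferon-responsive MG and at -0.86 and -0.72 in cycling MG, and Kazn at 0.15 and 0.18 in disease-associated MG (log2). With thinning to 1000 UMIs, shared detection was -0.78 points, higher in 1 of 9 hashtags (exact sign-flip permutation test, p = 0.0742). With the hashtag number as a replicate block, the log2 fold change of Arhgap31 in T was 2.16 (edgeR adjusted p = 0.114), and 8 genes in MM and 4 in T were called in place of 19 and 24. The sources name no link between same-numbered hashtags of the 2 PFF libraries. Their deviations in MG correlated by -0.083 to 0.234, with 2 of 4 pairs over 0.1. No replicate block between MG and MM gave Kazn 1.05 (adjusted p = 0.0854). The block changed no other call on a member. No filter on low counts gave 94 called genes in MM and 71 in T, MULTIseqDemux 5 and 12, and a marker share over 80% gave 0 by edgeR in MM and 1 in T. With that share, Arhgap31 in T was under the filter, Arhgap31 in MM was 95.6 CPM in Monomer and 158.1 in PFF + AZD1480, Kazn was 4.45 in MM of Monomer and 0 in T of PFF + VH. Kazn in MG against T was 10.9 with that share and 3.17 with MULTIseqDemux calls, in place of 2.26. Leaving Gm42418, Cmss1 and mitochondrial genes out of totals moved Arhgap31 in MG to 58.3 CPM in PFF + VH and 145.2 in PFF + AZD1480. Thinning to 2000 UMIs gave 0.66 for Kazn with immediate early genes (sign-flip permutation test, adjusted p = 0.0625). Without thinning, shared detection rose to 3.22 points (exact sign-flip permutation test, p = 0.00391). T cells without NK genes differed by 192.2 CPM and those with them by 112.2 CPM, an alternative chosen after seeing the data. The cause of these shifts was not tested, except that stricter classes leave fewer cells and unthinned cells differ in depth.

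Leaving out each hashtag in turn gave Arhgap31 1.26 to 1.32 and Kazn 1.01 to 1.10 in MG, with 2951 to 3402 genes called, Arhgap31 0.44 to 0.72 in MM with 9 to 33 genes called, and Arhgap31 1.82 to 2.58 in T with 1 to 57. More or fewer genes by over 1.5 times were called in MM without PFF + VH hashtag 1, 2 or 4 (9, 10 and 9) or PFF + AZD1480 hashtag 2, 3, 4 or 5 (10, 10, 33 and 9), and in T without PFF + VH hashtag 2, 3 or 4 (8, 9 and 7) or PFF + AZD1480 hashtag 1, 2, 3 or 4 (5, 1, 57 and 6). The T call of Arhgap31 was lost without PFF + VH hashtag 2, 3 or 4 or PFF + AZD1480 hashtag 1, 2 or 4. Kazn stayed at 0.91 to 1.37 against MM and 1.87 to 2.79 against T, past the threshold each time, and at 0.97 to 1.06 with immediate early genes, where 8 hashtags cannot give an adjusted p under 0.0625. Differences that never passed turned in sign for Arhgap31 between MG and T (-0.003 to 0.255) and in cycling MG (-0.092 to 0.275) and for Kazn in interferon-responsive MG (-0.63 to 0.165). Sums of T held 26 to 47 cells per hashtag in PFF + VH and 3 to 25 in PFF + AZD1480, and those of Neu 2 to 45 and 3 to 21, which limits what they can show.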
